A study of Mus musculus with 9 samples.

Results

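The 10 genes described here build the light response of cone photoreceptors: the opsin genes Opn1sw and Opn1mw, the arrestin gene Arr3, the transducin subunit genes Gnat2, Gnb3 and Gngt2, the phosphodiesterase genes Pde6c and Pde6h, and the channel subunit genes Cnga3 and Cngb3. They were taken by symbol from a table of 55487 genes measured by RNA-seq in cultured mouse retina. All 10 were present and passed the filter on low counts, with a lowest estimated count in any library between 15 (Opn1mw) and 7744 (Gnb3). The tissue came from C57BL/6J wild-type mice on postnatal day 28, and explants of both groups spent 48 h in Neurobasal-A medium containing 5 mM glucose and the supplements B27 and N2. Control explants (5 libraries) received no inhibitor. For the 2-DG explants (4 libraries) the medium also held 20 mM 2-deoxy-D-glucose, a glucose analog that inhibits glycolysis. Explants of either group were washed and then given 1 h in Krebs' Ringer solution, and their sclera and retinal pigment epithelium had been taken off at dissection. The comparison asks how inhibition of glycolysis changes RNA levels within the culture period.

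In a cone, light activates an opsin, and the opsin activates the heterotrimeric G protein transducin. Transducin removes the brake on a phosphodiesterase, cyclic GMP falls, and cyclic nucleotide-gated channels close. Arrestin then binds the opsin and ends its activity. Rods use a parallel cascade built from separate genes. Cones are a small minority of photoreceptors in the mouse, and many mouse cones hold both opsins in proportions that change from the dorsal to the ventral retina.

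Library totals ranged from 11317734 to 51802249 estimated counts, and the deepest library was 2-DG replicate 3. Levels are given as CPM (counts per 1e6 counts) on a library size scaled by the trimmed mean of M values (TMM), and 3 counts in a library came to between 0.0579 and 0.265 CPM on its unscaled total. The 10 genes did not behave evenly across libraries. Control replicate 2 and 2-DG replicate 3 both stood far above the other 7 libraries for 5 of the 10, and the fits for the 10 genes are therefore given with and without these 2. The other 7 were not alike either: 9 bipolar cell genes summed to 152 CPM in control replicate 5 and to 304 CPM in 2-DG replicate 4, against 491 to 2670 CPM in the other 7 of the 9 libraries, and the cone genes Gnb3 and Cngb3 were lowest in the same 2. Rod genes were also highest in control replicate 2. In 2-DG replicate 3, genes of the retinal pigment epithelium, the tissue that was peeled away at dissection, were far higher than elsewhere: the summed level of 8 such genes was 165 CPM there, 25.1 in 2-DG replicate 4 and 1.78 to 11.7 in the other 7 libraries. Rpe65, the visual cycle isomerase that defines this tissue, had 360 counts in 2-DG replicate 3, 11 in 2-DG replicate 4 and 0 to 2 in each of the other 7. The part of pigment epithelium RNA in the cone gene values of 2-DG replicate 3 was not tested.

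Opn1sw encodes the short-wavelength opsin and lies on chromosome 6 from 29376671 to 29388468 on the minus strand of GRCm38 (ENSMUSG00000058831). Opn1mw encodes the middle-wavelength opsin and lies on chromosome X from 74127464 to 74150760 on the plus strand (ENSMUSG00000031394). The promoter windows of both opsins, of Arr3, of Gnat2 and of Pde6h are shown because these 5 genes stood high in both control replicate 2 and 2-DG replicate 3. Each window holds 250 bases before and 50 bases after the start given by RefSeq for GRCm38.p6, written 5′ to 3′ on the strand of the gene. Capitals mark TAATCC, the core of binding sites of the photoreceptor factor CRX, on either strand (GGATTA when read on the other strand).
Opn1sw promoter, chr6:29380464-29380763, minus strand: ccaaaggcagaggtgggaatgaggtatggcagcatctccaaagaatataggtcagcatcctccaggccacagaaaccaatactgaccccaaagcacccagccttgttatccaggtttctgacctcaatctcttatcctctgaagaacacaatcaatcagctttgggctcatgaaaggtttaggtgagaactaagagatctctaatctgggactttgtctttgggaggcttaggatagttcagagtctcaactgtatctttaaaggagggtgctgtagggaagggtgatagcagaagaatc
Opn1mw promoter, chrX:74127216-74127515, plus strand: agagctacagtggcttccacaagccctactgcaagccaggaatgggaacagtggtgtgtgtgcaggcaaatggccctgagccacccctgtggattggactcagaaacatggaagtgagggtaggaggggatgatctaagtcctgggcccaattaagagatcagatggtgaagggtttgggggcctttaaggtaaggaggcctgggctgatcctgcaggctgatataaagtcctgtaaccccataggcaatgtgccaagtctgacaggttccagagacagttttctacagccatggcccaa
Arr3 promoter, chrX:100605247-100605546, plus strand: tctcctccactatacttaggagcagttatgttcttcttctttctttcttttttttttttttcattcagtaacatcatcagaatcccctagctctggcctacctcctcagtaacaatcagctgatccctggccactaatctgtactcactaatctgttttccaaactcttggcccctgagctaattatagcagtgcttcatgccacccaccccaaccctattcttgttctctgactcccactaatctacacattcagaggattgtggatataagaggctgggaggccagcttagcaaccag
Gnat2 promoter, chr3:108092816-108093115, plus strand: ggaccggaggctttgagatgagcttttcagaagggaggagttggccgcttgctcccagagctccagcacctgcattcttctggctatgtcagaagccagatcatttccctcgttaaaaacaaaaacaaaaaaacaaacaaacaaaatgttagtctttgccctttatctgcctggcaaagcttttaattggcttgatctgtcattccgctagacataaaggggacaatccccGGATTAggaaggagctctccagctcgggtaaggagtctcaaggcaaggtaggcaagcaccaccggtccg
Pde6h promoter, chr6:136954273-136954572, plus strand: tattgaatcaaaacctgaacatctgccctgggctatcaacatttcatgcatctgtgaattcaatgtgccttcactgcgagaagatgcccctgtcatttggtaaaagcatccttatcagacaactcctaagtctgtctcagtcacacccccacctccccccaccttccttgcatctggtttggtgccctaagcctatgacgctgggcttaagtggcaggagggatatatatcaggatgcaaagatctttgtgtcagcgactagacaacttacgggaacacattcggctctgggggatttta
A window was matched for 6 of the 10 genes, with 7 windows in all since Cnga3 had 2. Windows for Gngt2, Gnb3, Pde6c and Cngb3 were not analysed here. TAATCC occurred in 1 of the 7 windows, on the opposite strand of Gnat2 starting 19 bases before its start site. Of 32851 promoter windows of the same length, 2320 (7.06%) held it. A match is a string of letters and not a measured binding site.

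Opn1sw RNA was low in most explants and very high in 2 of them. Its level in the control libraries, in the order of their replicate numbers, was 3.54, 60.7, 3.21, 7.72 and 11.4 CPM, and in the 2-DG libraries 5.18, 3.73, 190 and 15.9 CPM. Control replicate 2 and 2-DG replicate 3 were high, the other 7 libraries lay between 3.21 and 15.9 CPM, and the groups overlapped. The control mean was 17.3 ± 24.5 CPM (SD, n = 5), and the 2-DG mean was 53.8 ± 91.2 CPM (SD, n = 4). On the log2 scale 2-DG exceeded control by 1.64 ± 1.22 (SE), which did not pass the test (edgeR quasi-likelihood test, adjusted p = 0.799). In whole tissue, a different number of cones and a different amount of RNA per cone cannot be told apart.

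Opn1mw followed the same libraries. It was at 3.61, 40.1, 3.21, 4.61 and 5.62 CPM in the control libraries and at 1.27, 2.64, 111 and 4.83 CPM in the 2-DG libraries. Again only control replicate 2 and 2-DG replicate 3 were high, and 3 of the 4 2-DG libraries lay inside or below the range of the other controls, 3.21 to 5.62 CPM. Its log2 fold change of 1.40 ± 1.26 (SE) did not pass the test either (edgeR, adjusted p = 0.83). Opn1sw overlaps Calu (284 CPM on average) on the opposite strand, as do Gngt2 with Abi3 and Pde6h with Arhgdib. The kit keeps strand, but whether counting used it is not given in the sources used here.

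Arr3 (ENSMUSG00000060890, chromosome X, 100605497 to 100618493) encodes cone arrestin. Its control levels were 14.3, 336, 17.3, 23.0 and 34.5 CPM, and its 2-DG levels were 14.8, 21.6, 211 and 44.6 CPM. For Arr3 the highest library of all was control replicate 2, not 2-DG replicate 3. Its fitted change was −0.22 ± 1.08 (SE) on the log2 scale (edgeR, adjusted p = 0.97).

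The transducin genes split. Gnat2, the cone alpha subunit, was at 11.5, 44.4, 12.4, 6.93 and 6.14 CPM in control and at 8.15, 9.12, 84.3 and 7.49 CPM in 2-DG libraries. Apart from the 2 high libraries, its range was 6.14 to 12.4 CPM, and the 3 other 2-DG libraries lay within the range of the 4 other controls. Gngt2, the cone gamma subunit, had a smaller span: 10.5, 36.8, 11, 13.2 and 20.9 CPM in control and 14.5, 15.7, 44.7 and 35.5 CPM in 2-DG libraries. For Gngt2, 2-DG replicate 4 came close to the 2 high libraries. Gnat2 had a log2 fold change of 0.75 ± 0.85 (SE) and Gngt2 of 0.58 ± 0.47 (SE), and neither passed the test (edgeR, adjusted p = 0.857 and 0.817).

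Gnb3, the beta subunit, did not share the pattern of the opsins. Its control levels were 594, 554, 611, 442 and 345 CPM and its 2-DG levels 820, 846, 572 and 250 CPM. Control replicate 2 and 2-DG replicate 3 were in the middle of their groups, while 2-DG replicates 1 and 2 were highest and 2-DG replicate 4 lowest. Gnb3 is also the beta subunit of ON bipolar cells. The Pearson r of its log2 CPM over the 9 libraries with 4 bipolar genes, given as a description, was 0.89 with Prkca, 0.78 with Isl1, 0.77 with Grm6 and 0.74 with Trpm1. The same r of Gnb3 with Opn1sw was −0.24 and with Arr3 −0.18, and over the 7 libraries without the 2 high ones −0.88 and −0.86. Likeness to bipolar genes was not particular to Gnb3. Over the 9 libraries Cngb3 had r = 0.70 with Grm6, 0.64 with Isl1, 0.48 with Prkca and 0.38 with Trpm1. With these 4 genes the r over the 9 was 0.41 to 0.52 for Pde6c, −0.02 to 0.32 for Gnat2 and −0.41 to −0.16 for Opn1sw. Over the 7 libraries without the 2 high ones it was 0.65 to 0.89 for Pde6c, 0.81 to 0.86 for Cngb3 and 0.59 to 0.73 for Gnat2, but −0.89 to −0.81 for Opn1sw. All these values come from the same libraries and share their depth and composition. Gnb3 had a log2 fold change of 0.29 ± 0.36 (SE; edgeR, adjusted p = 0.869).

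Pde6c, the catalytic subunit of the cone phosphodiesterase, was the one gene of the 10 with an unadjusted p under 0.05. It was at 16.3, 27.5, 20.5, 12.6 and 12.7 CPM in control libraries (mean 17.9, SD 6.25) and at 29.4, 27.9, 120 and 8.89 CPM in 2-DG libraries (mean 46.6, SD 49.9). Of the 2-DG libraries 3 lay above every control and replicate 4 lay below every control. Its fitted change was 1.38 ± 0.61 (SE) on the log2 scale (edgeR, adjusted p = 0.689), so it did not pass the adjusted threshold. Without 2-DG replicate 3 the change was 0.30 ± 0.43 (SE; adjusted p = 0.897). Pde6h, the inhibitory subunit, was at 4.96, 29.1, 4.58, 6.82 and 8.11 CPM in control and at 11.2, 9.71, 37.0 and 13.2 CPM in 2-DG libraries. All 4 2-DG libraries were above 4 of the 5 controls, and control replicate 2 was above 3 of the 2-DG libraries. Its log2 fold change was 0.74 ± 0.62 (SE; edgeR, adjusted p = 0.82).

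The channel genes had the lowest median levels of the 10 per kilobase, but Pde6h was below both of them in control replicates 1 and 3. Cnga3, the alpha subunit, was at 6.04, 2.86, 8.25, 5.59 and 3.81 CPM in control and at 2.80, 3.89, 12.6 and 2.72 CPM in 2-DG libraries. It was high in 2-DG replicate 3, but control replicate 2 was the lowest control. Cngb3, the beta subunit, was at 9.15, 10, 3.97, 3.50 and 1.84 CPM in control and at 4.84, 5.26, 12.4 and 1.57 CPM in 2-DG libraries. Here control replicate 1 was nearly as high as control replicate 2, and the 2-DG libraries spanned more than the controls. Fitted changes were 0.06 ± 0.53 (SE) for Cnga3 and 0.08 ± 0.63 (SE) for Cngb3 (edgeR, adjusted p = 0.986 and 0.984).

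**Figure D1:**
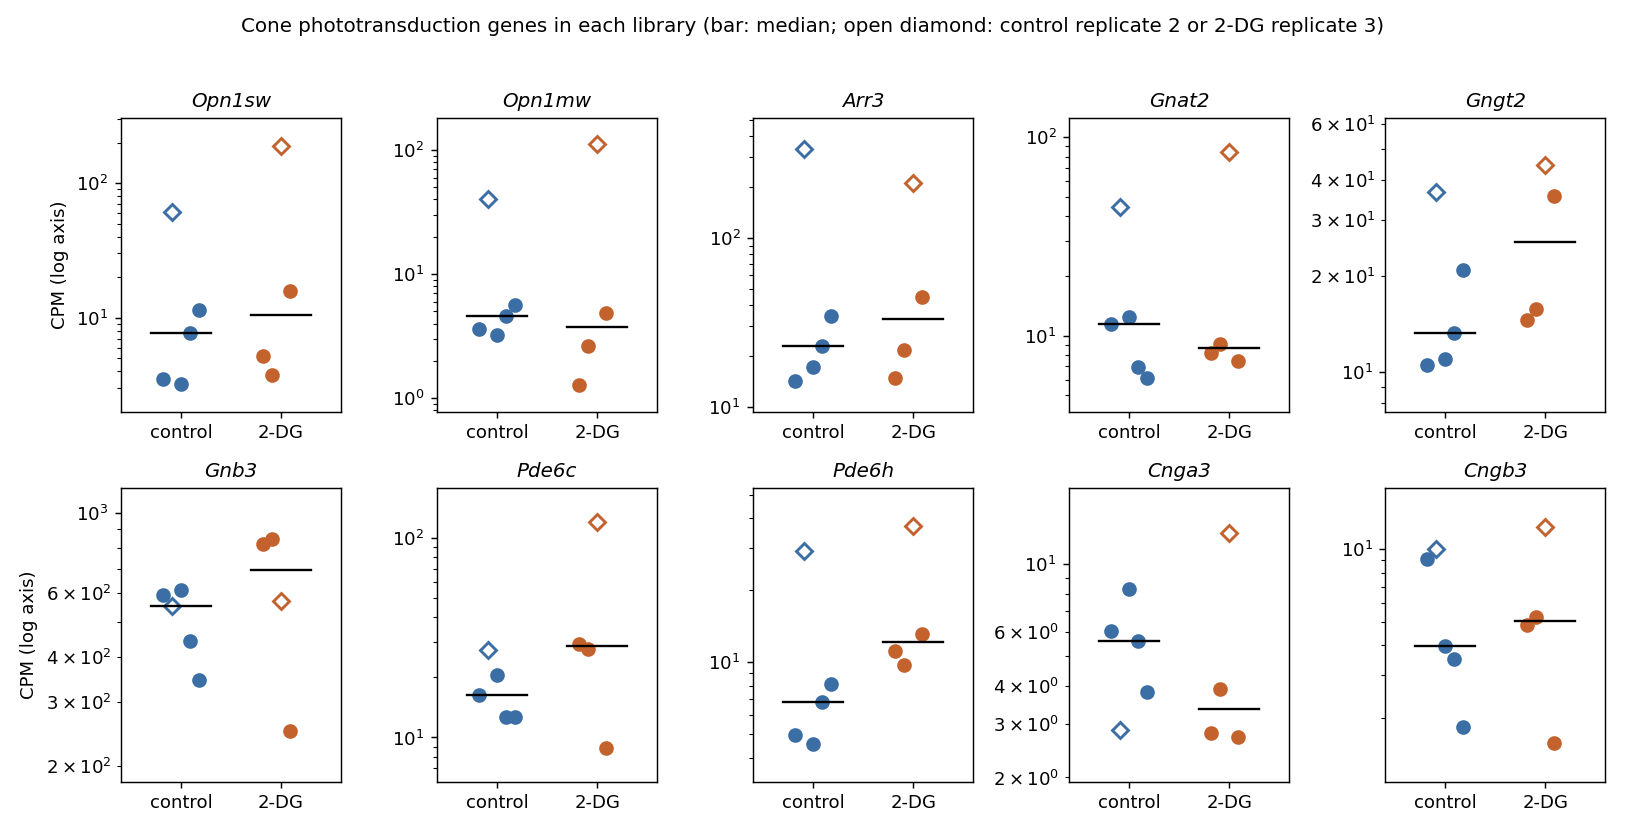
Level of each of the 10 genes in every library, in CPM on a log axis, for 5 control and 4 2-DG libraries; bars are group medians and open diamonds mark control replicate 2 and 2-DG replicate 3. Both diamonds stand far above the other points for Opn1sw, Opn1mw, Arr3, Gnat2 and Pde6h, but not for Gnb3.

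The order of levels per kilobase of exon was read from the median over the 9 libraries. Gnb3 was highest at 217 CPM per kilobase, followed by Arr3 at 9.76, Gngt2 at 8.37, Pde6c at 6.91, Gnat2 at 3.04, Opn1sw at 3.02, Opn1mw at 2.95, Pde6h at 1.24, Cngb3 at 1.03 and Cnga3 at 0.983 CPM per kilobase. Gnb3 was above Arr3 in 9 of 9 libraries, while Gngt2 was above Pde6c in 5, Gnat2 above Opn1sw in 4, Opn1sw above Opn1mw in 5 and Cngb3 above Cnga3 in 4 of the 9. Those last 4 pairs of neighbours could not be ordered beyond the spread between libraries. In both high libraries the opsins stood higher in this order, next after Gnb3 and Arr3. Opn1sw and Opn1mw were at 23.7 and 25.7 CPM per kilobase in control replicate 2, against 143 for Arr3 and 19.6 for Gngt2, and at 74.4 and 71.2 in 2-DG replicate 3, against 89.5 for Arr3 and 40.4 for Pde6c.

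Of the 10 genes, 0 had an adjusted p under 0.05 in edgeR, and 0 of all 21049 genes tested did (0%). At an unadjusted p under 0.05 there was 1 of the 10, Pde6c, beside 7.25% of all genes. The groups did not overlap in 0 of the 10 genes in either direction, where 1.52% of all genes were higher and 1.41% lower in 2-DG without overlap. Limma-voom, with and without sample quality weights, also called 0 of the 10 at an adjusted p under 0.05, and DESeq2 called 0 of the 5 for which it gave a p. DESeq2 gave no p for Opn1sw, Opn1mw, Arr3, Gnat2 and Pde6h, the genes that stood high in both libraries, and so says nothing on them. How many of all genes these methods called is not reported here. The fitted log2 fold change was above 0 in 9 of the 10 genes, with a median of 0.66, against 49.2% of all genes and a median of −0.01.

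Leaving out one or the other of the 2 high libraries gave medians of opposite sign. Without control replicate 2, 9 of the 10 genes had a log2 fold change above 0, their median was 1.55 (median of all genes 0.03), and 4 had an unadjusted p under 0.05 beside 8.99% of all genes. The 4 were Opn1sw (log2 fold change 3.05), Gngt2 (0.99), Pde6c (1.58) and Pde6h (1.53), and the lowest adjusted p of the 10 was 0.271, for Pde6h. In that fit 16 of all 20632 genes tested had an adjusted p under 0.05, and 0 of the 10 did. Without 2-DG replicate 3, only 4 of the 10 were above 0, the median was −0.65 (median of all genes −0.03), and 0 of the 10 had an unadjusted p under 0.05 beside 6.36% of all genes. Opn1sw then had a log2 fold change of −1.05 ± 1.02 (SE), Opn1mw of −1.94 ± 0.98 (SE) and Arr3 of −1.65 ± 1.12 (SE).

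With both libraries left out, 4 control and 3 2-DG libraries remained, and the fitted changes shrank for the opsins but not for every gene, with Cnga3 moving from 0.06 to −0.91 and Cngb3 from 0.08 to −0.25. They were above 0 in 6 of the 10 genes with a median of 0.32 (median of all genes 0.01). At an unadjusted p under 0.05 there were 2 of the 10, beside 9.19% of all genes tested. Pde6h was higher in 2-DG by 0.89 ± 0.30 (SE) on the log2 scale, with 9.71 to 13.2 CPM in 2-DG and 4.58 to 8.11 CPM in control (edgeR, adjusted p = 0.398). For Cnga3 the log2 fold change was −0.91 ± 0.36 (SE), with 2.72 to 3.89 CPM in 2-DG and 3.81 to 8.25 CPM in control (edgeR, adjusted p = 0.487). The 2 opsins stood at 0.36 ± 0.64 (SE) for Opn1sw and −0.53 ± 0.48 (SE) for Opn1mw. None of these passed the adjusted threshold.

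**Figure D2:**
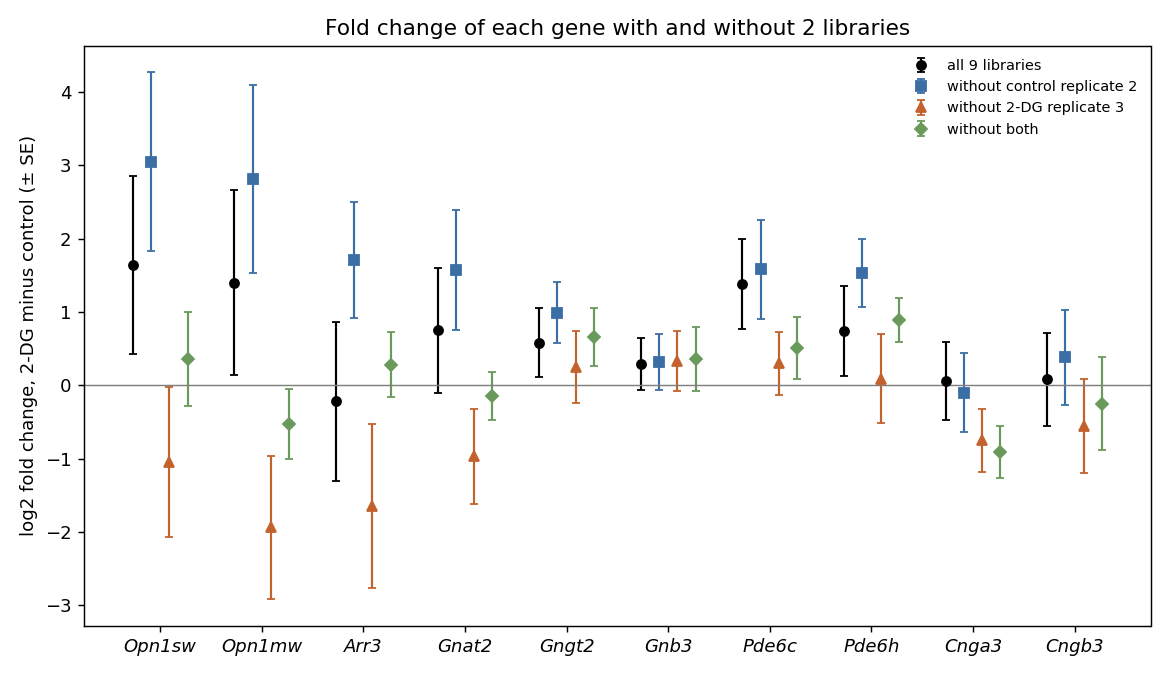
Log2 fold change of each gene, 2-DG minus control, with its standard error, in edgeR fits on all 9 libraries, without control replicate 2, without 2-DG replicate 3 and without both. The estimates for Opn1sw run from 3.05 to −1.05 depending on which library was left out, while those for Gnb3 stay between 0.29 and 0.36.

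The 2 high libraries were then described on their own. Control replicate 2 was at least 2-fold above the highest other control in 5 of the 10 genes, beside 7.18% of all genes. 2-DG replicate 3 was at least 2-fold above the highest other 2-DG library in 8 of the 10, beside 4.07% of all genes. The 5 genes that met both were Opn1sw, Opn1mw, Arr3, Gnat2 and Pde6h, where 0.451% of all genes did. These 2 libraries had been singled out for their cone gene levels, so the counts are a description and no test.

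The 2 libraries did not raise the same genes by the same amount. Relative to the median of the other controls, control replicate 2 stood at 16.7-fold for Arr3, 10.8-fold for Opn1sw, 9.75-fold for Opn1mw and 4.83-fold for Gnat2. Relative to the median of the other 2-DG libraries, 2-DG replicate 3 stood at 42.1-fold for Opn1mw, 36.8-fold for Opn1sw, 10.3-fold for Gnat2 and 9.77-fold for Arr3. So the opsins led in 2-DG replicate 3 and Arr3 led in control replicate 2. Set against each other, 2-DG replicate 3 held 3.13 times as much Opn1sw, 4.37 times as much Pde6c and 4.39 times as much Cnga3 as control replicate 2, but 0.627 times as much Arr3. The count of Arr3 per count of Opn1sw was 1.11 in 2-DG replicate 3, 5.54 in control replicate 2 and 2.80 to 5.75 in the other 7 libraries.

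Rod genes separated the 2 libraries. The rod cascade was read from 9 genes: Sag (rod arrestin), Gnat1, Gnb1 and Gngt1 (transducin), Pde6a, Pde6b and Pde6g (phosphodiesterase), and Cnga1 and Cngb1 (channel). Gnat1, the rod alpha subunit, was at 994, 8792, 1720, 1621 and 3204 CPM in control and at 1795, 2146, 1587 and 3495 CPM in 2-DG libraries. It was thus highest in control replicate 2, and 2-DG replicate 3 was the lowest of its group. Control replicate 2 was the highest control in 9 of the 9 rod genes, by 2.96-fold (Gnb1) to 8.23-fold (Pde6b) over the median of the other controls. In 2-DG replicate 3 the same genes were at 0.629-fold (Cngb1) to 1.06-fold (Sag) of the median of the other 2-DG libraries, and 0 of the 9 were highest there.

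**Figure D3:**
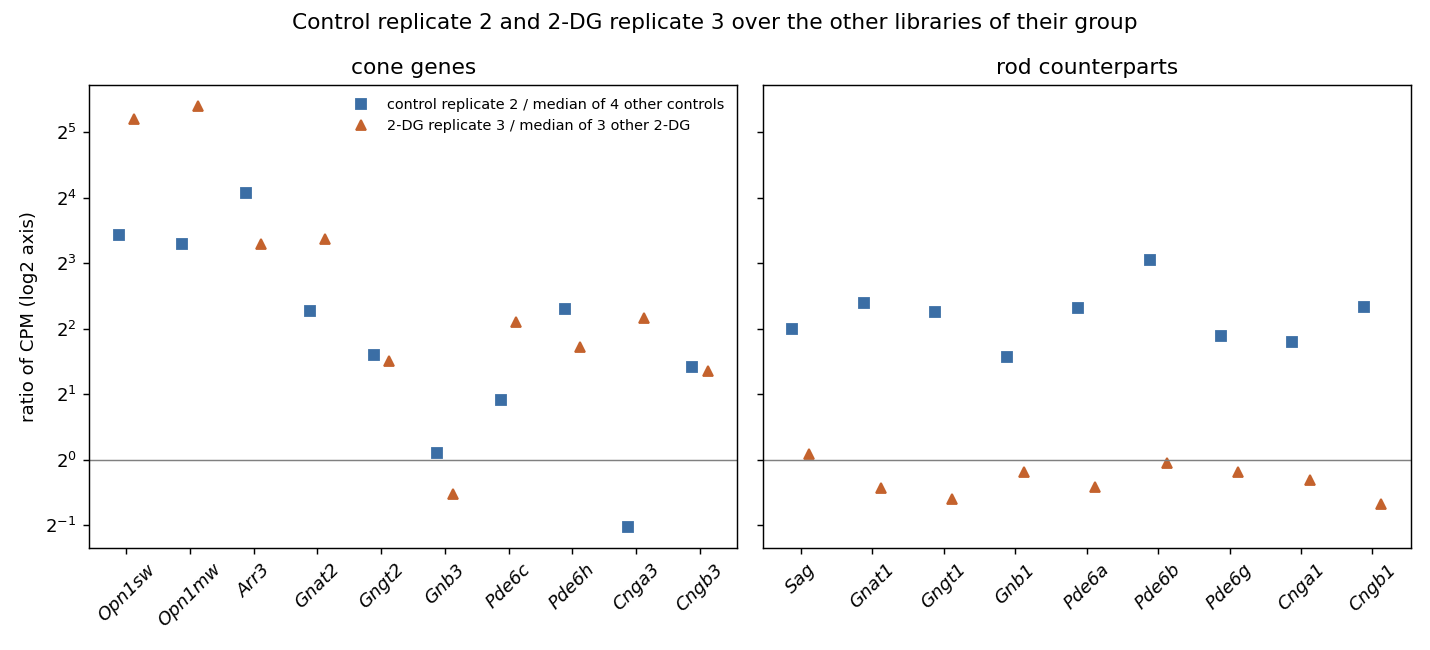
Ratio of control replicate 2 to the median of the 4 other controls and of 2-DG replicate 3 to the median of the 3 other 2-DG libraries, on a log2 axis, for the 10 cone genes and 9 rod counterparts. Squares (control replicate 2) lie above 1 for all 9 rod genes, whereas triangles (2-DG replicate 3) lie between 0.629 and 1.06 there and reach 42.1 among the cone genes.

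Summed over 9 cone genes, without Gnb3, which alone was at 250 to 846 CPM, the level was 79.9, 588, 84.4, 84.0 and 105 CPM in the control libraries and 92.1, 99.6, 823 and 135 CPM in the 2-DG libraries. The 9 rod genes summed to 2973, 24266, 5030, 5810 and 10254 CPM in control and to 4862, 5940, 4937 and 11634 CPM in 2-DG libraries. The cone sum was 2.42% of the rod sum in control replicate 2, within the 1.02% to 2.69% of the other controls. In 2-DG replicate 3 it was 16.7%, against 1.16% to 1.89% in the other 2-DG libraries. The share of counts from mitochondrial genes was 10.7% in control replicate 2 and 6.05% in 2-DG replicate 3, and 3.40% to 13.6% over the other 7. Leaving out Gnb3 was chosen after its values were seen. With it, the sum of all 10 was 1142 CPM in control replicate 2 (450 to 696 CPM in the other controls) and 1395 CPM in 2-DG replicate 3 (385 to 945 CPM in the other 2-DG libraries).

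**Figure D4:**
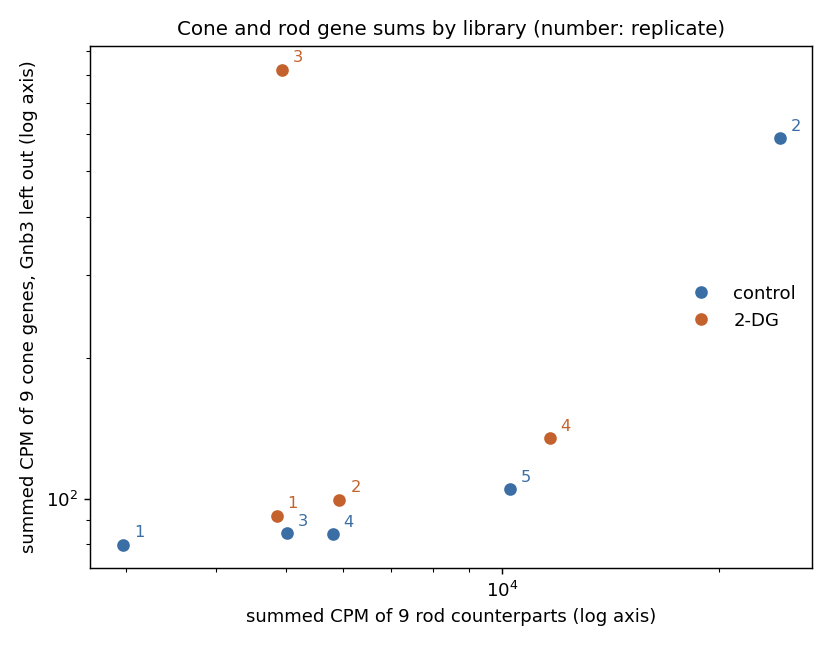
Summed CPM of 9 cone genes against summed CPM of the 9 rod counterparts in each library, both on log axes, with replicate numbers beside the points. Control replicate 2 is high on both axes (588 and 24266 CPM), and 2-DG replicate 3 is high on the cone axis alone (823 and 4937 CPM).

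As a group the rod genes had 9 of 9 log2 fold changes below 0 in the fit on all 9 libraries, with a median of −0.53, and 0 passed the test at an adjusted or an unadjusted p under 0.05. The smallest p among them was that of Gngt1 (−0.75 ± 0.68, SE; edgeR, adjusted p = 0.831). Without control replicate 2 the median was 0.15, and without both libraries it was 0.25 with 9 of 9 above 0. The direction of the rod genes therefore also rested on control replicate 2. Of a list of 18 further genes of the light response and the outer segment, 3 were above 0 and 15 below with 0 past the test, and Pdc, which binds transducin subunits, had the smallest p (−1.11 ± 0.59, SE; edgeR, adjusted p = 0.733). Their median of −0.42 also turned, to 0.16 with 12 of 18 above 0 without control replicate 2 and to 0.20 with 13 of 18 above 0 without both libraries.

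The contrast of the short- and middle-wavelength opsin was taken within each library, where scaling cancels. The counts of Opn1sw and Opn1mw were 92 and 94, 848 and 560, 42 and 42, 293 and 175, and 353 and 174 in control replicates 1 to 5. They were 61 and 15, 120 and 85, 10270 and 6002, and 557 and 169 in 2-DG replicates 1 to 4. Opn1sw therefore made up 49.5%, 60.2%, 50%, 62.6% and 67.0% of the opsin counts in the control libraries and 80.3%, 58.5%, 63.1% and 76.7% in the 2-DG libraries. These shares take no account of exon length, which was 2557 bases for Opn1sw and 1562 for Opn1mw. Per kilobase of exon, Opn1sw was above Opn1mw in 5 of the 9 libraries. The share was highest in 2-DG replicates 1 and 4, and the groups overlapped.

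The depth behind these shares was unequal. With 76 opsin counts, 2-DG replicate 1 had a 95% Wilson interval of 70.0% to 87.7%, and with 84 counts control replicate 3 had one of 39.5% to 60.5%. With 16272 counts, 2-DG replicate 3 had one of 62.4% to 63.9%, inside the range of the control shares. Both high libraries thus held a middling mixture of the opsins although their opsin levels were many times those of the rest. These intervals cover counting error only.

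The mean log2 ratio of Opn1sw to Opn1mw came to 0.46 ± 0.46 (SD) over the 5 control libraries and to 1.25 ± 0.73 (SD) over the 4 2-DG libraries. The difference of 0.79 gave p = 0.119 in an exact two-sided permutation test over all assignments of 4 of the 9 libraries, whose smallest possible p is 0.00794. It did not pass the threshold. Without both high libraries the difference was 0.98 (exact permutation p = 0.143). Leaving out each library in turn gave differences of 0.53 to 1.04, all in the same direction.

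**Figure D5:**
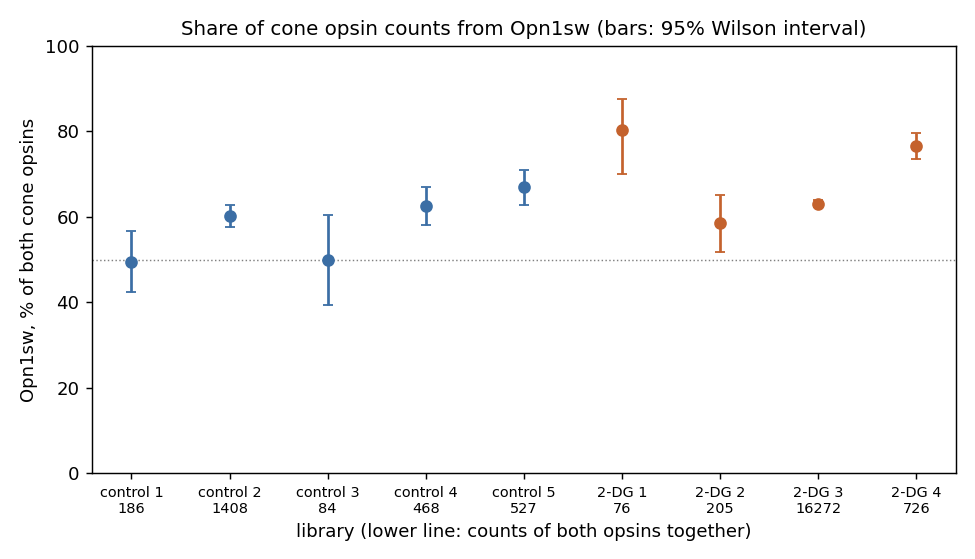
Share of Opn1sw in the counts of both cone opsins for each library, in percent, with 95% Wilson intervals and the opsin counts under each library name. The 2-DG libraries range from 58.5% to 80.3% and the control libraries from 49.5% to 67.0%, with 2-DG replicate 3 at 63.1%.

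Genes that shape the opsin pattern were read from a list of 15, all of which were tested. Their log2 fold changes were above 0 in 4 and below in 11 with a median of −0.19, which turned to 0.12 (8 above and 7 below) without control replicate 2 and was −0.08 without both high libraries. Of the 15, 0 passed the adjusted threshold, and 1 of the 15 had an unadjusted p under 0.05, a share near the 7.25% of all genes. That gene was Dio3, the deiodinase that inactivates thyroid hormone, a hormone that promotes Opn1mw and represses Opn1sw in developing cones. Dio3 was at 7.04, 0.430, 8.70, 7.11 and 10.6 CPM in control and at 0.679, 1.68, 2.72 and 1.83 CPM in 2-DG libraries. Control replicate 2, with 6 counts, was the lowest library of all, and every 2-DG library was below each of the other 4 controls. Its log2 fold change was −1.95 ± 0.72 (SE; edgeR, adjusted p = 0.616), and it was −2.25 without control replicate 2, −2.25 without 2-DG replicate 3 and −2.55 without both (adjusted p = 0.0772, 0.757 and 0.149).

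Rorb, a nuclear receptor gene known to activate the short-wavelength opsin, was the one gene of the 15 whose groups did not overlap, where 1.41% of all genes were lower in 2-DG without overlap. It was at 86.4, 149, 110, 94.3 and 82.3 CPM in control and at 72.8, 79.0, 80.7 and 69.5 CPM in 2-DG libraries. Rorb had a log2 fold change of −0.47 ± 0.22 (SE; edgeR, adjusted p = 0.692), and of −0.34 without both high libraries (adjusted p = 0.644). The thyroid hormone receptor gene Thrb was at 31.8 CPM on average in control and at 25.8 CPM in 2-DG libraries, with a log2 fold change of −0.30 ± 0.26 (SE; edgeR, adjusted p = 0.822). Crx encodes the factor whose core string TAATCC, not a measured site, was searched in the promoter windows above. It had means of 466 and 419 CPM and a log2 fold change of −0.15 ± 0.33 (SE; edgeR, adjusted p = 0.925), which was 0.25 without both high libraries (adjusted p = 0.88).

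Other cone genes shared the height of the 2 libraries in part. Of a list of 6 (Ccdc136, Kcne2, Otop3, Thrb, Rxrg and Slc24a2), 4 were above 0 and 2 below with 0 past the test, and without 2-DG replicate 3 it was 2 above and 4 below, with a median of −0.24 in place of 0.17. Slc24a2 is also among the 18 genes above, and Thrb and Rxrg among the 15. Control replicate 2 was the highest control in 4 of these 6 but at least 2-fold above the next in 0 of 6, beside 7.18% of all genes. 2-DG replicate 3 was the highest of its group in 4 of 6 and at least 2-fold above the next in 3 of 6, beside 4.07% of all genes. Rxrg, a retinoid X receptor gene, was at 2.87-fold and 2.65-fold of the median of the other libraries of its group in the 2, and Otop3 at 2.60-fold and 8.93-fold. Kcne2 was at 0.784-fold and 0.889-fold, and Slc24a2 at 0.626-fold in control replicate 2 and 3.04-fold in 2-DG replicate 3. Otop3 had the smallest p (1.03 ± 0.73, SE; edgeR, adjusted p = 0.79), and its log2 fold change was 0.20 without both high libraries (adjusted p = 0.972).

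Marker genes of the other retinal cells were measured beside the cone genes. By list, the numbers with an unadjusted p under 0.05 were 0 of 9 bipolar, 3 of 7 Muller glia, 2 of 4 tested pigment epithelium, 0 of 8 amacrine and horizontal, 0 of 7 ganglion and 0 of 6 microglia genes, and 0 of 6 photoreceptor stress genes. The share of all genes was 7.25%. The 3 Muller glia genes had lower and the 2 pigment epithelium genes, Pmel and Ttr, higher fitted levels in 2-DG, and 0 of any list passed the adjusted threshold. The values of Pmel and Ttr rested on 2-DG replicate 3. Without it the log2 fold change fell from 3.54 to 0.22 ± 0.82 (SE) for Pmel and from 3.21 to 1.47 ± 0.84 (SE) for Ttr (edgeR, adjusted p = 0.962 and 0.804). Of the 7 Muller glia genes, 4 were below 0 in the fit on all 9 libraries and 7 without both high libraries, where 4 had an unadjusted p under 0.05 beside 9.19% of all genes. Sox9 was at −2.48 without control replicate 2 and at −2.25 without both (edgeR, adjusted p = 0.057 and 0.119). The 6 microglia genes had a median of 0.13 on all 9 libraries, with 4 above 0. Without both high libraries their median was −1.71 with 0 of 6 above 0, and 2 of 6 had an unadjusted p under 0.05 beside the same 9.19%. The genes with the smallest p in each list had log2 fold changes of 1.10 ± 0.70 (SE) for Prkca, −2.20 ± 0.57 for the glial factor Sox9, 3.21 ± 1.03 for Ttr, 0.62 ± 0.45 for Slc6a9, −0.78 ± 0.49 for Nefm, −1.74 ± 0.97 for Tmem119 and −1.11 ± 0.65 for Lif, with adjusted p (edgeR) of 0.524 to 0.792. In 2-DG replicate 3 the microglia genes summed to 47.5 CPM, against 7.37 to 12.8 CPM in the other 2-DG libraries and 9.74 to 38.4 CPM in control. Besides the pigment epithelium and microglia lists, the sums of 3 others of these lists were also the highest of the 2-DG group there. The bipolar sum of 1694 CPM lay within the 304 to 2670 CPM of the other 2-DG libraries. The Muller glia genes summed to 2830 CPM (609 to 1890 CPM in the other 2-DG libraries, 1442 to 6247 CPM in control), and single genes ranged from 0.407-fold (Sox9) to 13.6-fold (Kcnj10) of the median of the other 2-DG libraries. The amacrine and horizontal genes summed to 704 CPM (172 to 425 CPM, and 103 to 687 CPM in control) and the ganglion genes to 696 CPM (203 to 465 CPM, and 295 to 1468 CPM in control). In control the ganglion sum was highest in control replicate 2, at 1468 CPM. The pigment epithelium genes in 2-DG replicate 3 included Pmel at 62.2, Ttr at 49.0, Rgr at 24.9, Tyr at 10.6, Rpe65 at 6.66, Lrat at 5.78 and Mlana at 5.09 CPM, and Best1 at 0.700 CPM. Best1 there lay within the 0.160 to 1.29 CPM of the other 8 libraries, and Rpe65 was at 0 in 4 of those 8. Their part in the cone gene values was not tested.

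At the transcript level, 31 of the 45 annotated transcripts of the 10 genes passed the filter among 62900 tested. In edgeR, 0 of the 31 passed an adjusted p under 0.05, where 0% of all transcripts did, and 2 had an unadjusted p under 0.05, beside 3.45% of all transcripts. The 2 were Opn1sw-202, a processed transcript, and the coding transcript Pde6c-201, both higher in 2-DG. Opn1sw-202 was at 28.4 CPM in 2-DG replicate 3 and at 0 to 0.696 CPM in the other 8 libraries, control replicate 2 included at 0.297 CPM. The 2 high libraries therefore also differed in the transcripts to which Opn1sw reads were assigned. Opn1sw-203, a coding transcript, was at 31.7 CPM in control replicate 2 and at 22.9 CPM in 2-DG replicate 3, while Opn1sw-201 was at 29.4 and 102 CPM.

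For Arr3 both high libraries differed from the other 7 in the same direction. The transcript Arr3-202, annotated as a retained intron, was at 285 CPM in control replicate 2, at 103 CPM in 2-DG replicate 3 and at 1.93 to 8.14 CPM elsewhere. The coding transcript Arr3-201 was at 137 and 64.5 CPM in the 2 high libraries and at 5.81 to 42.1 CPM elsewhere. Arr3-202 was thus assigned more counts than Arr3-201 in both high libraries and less in the other 7. How reads were divided between overlapping transcripts carries an error that the deposited counts do not show.

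The genes whose pattern was most like that of the opsins were found among 12263 protein-coding genes with a mean of at least 5 CPM by Pearson r of log2 CPM over the 9 libraries, with the 10 genes themselves left out. Among the 10, Opn1sw had r = 0.94 with Opn1mw and with Arr3, 0.92 with Pde6h and 0.91 with Gngt2. Without the 2 high libraries, over the other 7, it had 0.54 with Opn1mw, 0.89 with Arr3, 0.61 with Pde6h and 0.87 with Gngt2. Its r turned from 0.82 to −0.83 with Gnat2, from 0.59 to −0.79 with Pde6c, from 0.22 to −0.60 with Cnga3 and from 0.38 to −0.88 with Cngb3. Outside the 10, those most like Opn1sw were Cnp (r = 0.925), Klhl33 (0.893), Gusb (0.892), Klf15 (0.888) and Crat (0.883). For Opn1mw they were Crat (0.931), Ogfrl1 (0.919), Rbbp9 (0.918), Zfp93 (0.915) and Cnp (0.913). Crat, an acetyltransferase of carnitine, was at 39.4 CPM in control replicate 2, at 37.5 CPM in 2-DG replicate 3 and at 17.9 to 23.4 CPM in the other 7 libraries. Likeness to the mean of the 10 genes gave Crat (0.928), Klf15 (0.918), Mylk (0.896), Zfp963 (0.893) and Tfdp2 (0.887). Over the 7 libraries without the 2 high ones, r fell to between −0.27 (Tfdp2) and 0.50 (Zfp963) for the mean of the 10. For the opsins it fell less evenly, to between 0.26 (Crat) and 0.74 (Cnp) for Opn1sw and to between 0.49 (Crat) and 0.79 (Zfp93) for Opn1mw. These values describe the libraries and carry no test.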

How the data were processed

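Each of the 9 RNA-seq libraries took 4 ng of total RNA into a strand-keeping kit, with 13 PCR cycles and paired reads of 101 bases, and all carry the same batch label. Groups and replicate numbers came from the sample titles. The authors deposited estimated counts per gene and per transcript, not scaled between libraries. The submitters' processing notes name kallisto and GRCm38, while versions, the annotation and the way gene values were formed are not given in the sources used here. Deposited CPM of 12568 genes, scaled by the authors, were treated as a score because columns sum to 936039 to 1214015; the 10 genes had values within 0.902 to 1.03 of those computed here (ratio of computed to deposited CPM). A deposited table of the authors' own comparison, with fold changes and p-values, was not used. 0 columns lacked a sample.

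Estimated counts were rounded and tested with edgeR 4.0.16 in R 4.3.3 (filterByExpr, TMM, glmQLFit with legacy=TRUE and robust=FALSE, glmQLFTest, group as the only term), with Benjamini-Hochberg adjustment over all 21049 genes kept, and in the same way over 62900 transcripts. The threshold was an adjusted p of 0.05. The standard error is the absolute log2 fold change over the square root of the F statistic. CPM use the TMM-scaled library size, log2 CPM a prior count of 2, and the opsin ratio 0.5 added to each count. The scripts were tested on simulated data. DESeq2 1.42.0, limma 3.58.1 and other settings served as alternatives. Exon lengths and gene positions are from GENCODE M21 on GRCm38, promoters from RefSeq on GRCm38.p6. Titles call the libraries biological replicates without naming their animals, so p-values measure the spread between these libraries, which may be partly technical. Reads carry no molecular identifiers here. The 10 genes, the lists of other genes and the alternatives were chosen with earlier results of these data known. The 10 genes and the rod counterparts reported were always named, and of each other list the gene with the smallest p; Rorb, Thrb, Crx, Rxrg and single pigment epithelium and Muller glia genes were named after their values were seen. A few listed or overlapping genes are not reported here. For likeness the 5 genes outside the 10 with the highest r were named.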

Additional observations from a re-analysis of the deposited data

Results flagged for a closer look

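In 22 groups of 4 or 5 libraries (the 10 genes and the opsin ratio, in control and in 2-DG), 3 held a library whose gap to its nearest neighbour was large relative to the range of the group; about 1 in 20 such groups is marked by chance alone. Control replicate 2 was marked for Opn1mw, at 40.1 CPM against 3.21 to 5.62 CPM in the other controls, and for Arr3, at 336 CPM against 14.3 to 34.5 CPM. 2-DG replicate 3 was marked for Gnat2, at 84.3 CPM against 7.49 to 9.12 CPM in the other 2-DG libraries. The measure was taken on log2 CPM (for the opsins, on their log2 ratio too). On CPM without a log, chosen after seeing the data, 11 of the 20 groups of the genes held such a library, which was control replicate 2 in 5 and 2-DG replicate 3 in 6.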

How the results depend on the processing

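The number of the 10 genes with an adjusted p under 0.05 was 0 under every alternative run. Of all genes, 16 of 20632 passed that threshold in edgeR without control replicate 2. The number of the 10 genes with an unadjusted p under 0.05 was 1 with all 9 libraries, beside 7.25% of all genes. It was 0 with library size only, upper-quartile scaling, limma-voom and limma on log2(deposited CPM + 1), and 3 with limma-voom and sample quality weights. For these alternatives the share of all genes is not reported here, so their counts cannot be read against it. Without both high libraries it was 2, beside 9.19% of all genes. At the transcript level 2 genes had such a transcript, beside 3.45% of all transcripts. It was 0 to 4 when each library was left out in turn, with 4 without control replicate 2, beside 8.99% of all genes. DESeq2 gave no p for Opn1sw, Opn1mw, Arr3, Gnat2 and Pde6h. The log2 fold changes of Gngt2, Gnb3, Pde6c and Pde6h kept their sign under all 20 alternatives. The others changed sign. Limma-voom gave 0.42 for Arr3 and −0.05 for Cnga3, with sample quality weights 0.16 for Arr3, −0.52 for Opn1mw and −0.58 for Cnga3, and limma on the deposited CPM 0.09 for Arr3, −0.20 for Cnga3 and −0.06 for Cngb3. Without both high libraries the values were −0.53 for Opn1mw, 0.28 for Arr3, −0.15 for Gnat2, −0.91 for Cnga3 and −0.25 for Cngb3. Leaving out each library in turn gave −1.05 to 3.05 for Opn1sw, −1.94 to 2.81 for Opn1mw, −1.65 to 1.71 for Arr3, −0.97 to 1.57 for Gnat2, −0.75 to 0.29 for Cnga3 and −0.55 to 0.40 for Cngb3. The cause of these shifts was not tested beyond which library was left out. The difference of the log2 opsin ratio stayed between 0.53 and 1.04, with exact permutation p-values between 0.0536 and 0.25, the last from the sign-flip test below.

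Groups share replicate numbers, but nothing shows that a number marks a shared animal or day, and the deviations of same-numbered libraries correlated at 0.45, −0.15, 0.10 and 0.21, so the numbers were not used to pair them. Differently numbered pairs ran from −0.69 (control replicate 1 with 2-DG replicate 4) to 0.72 (control replicate 5 with 2-DG replicate 4). With the replicate block on replicates 1 to 4, 0 of the 10 genes had an unadjusted p under 0.05. That fit gave −0.43 for Opn1mw, 0.35 for Arr3, −0.05 for Gnat2, −0.28 for Cnga3 and −0.41 for Cngb3, and a difference of the log2 opsin ratio of 0.92 (exact sign-flip permutation p = 0.25). With 4 pairs the sign-flip test has too few assignments to fall under 0.05 whatever the values, so it decides nothing. Low counts limit the opsin ratio most in 2-DG replicate 1 and control replicate 3, with 76 and 84 opsin counts.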
